A study of Homo sapiens with 8 samples.

Results

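The mRNAs of 10 genes that set the activity of cyclin-dependent kinase 2 (CDK2) and its relatives were followed in HCT116 cells, an established human line from colorectal cancer, that had been given a miR-8073 mimic. The genes were 7 named as CDK inhibitors (CDKN1B, CDKN1C, CDKN2A, CDKN2B, CDKN2C, CDKN2D and CDKN3), CDK2 itself, and SKP2 and CKS1B, which mark the inhibitor p27 for destruction. All probes annotated with these symbols were taken, which gave 12 of the 24460 probes on the array. HCT116 cells received the synthetic miR-8073 mimic (3 arrays), a microRNA-negative control sequence (3 arrays) or no sequence, called mock (2 arrays). Total RNA was amplified, labelled with Cy5 and hybridized to a 3D-Gene oligo chip, with 1 sample on each array. All groups were the same line without a further genetic change, so the mimic is a model of added miR-8073, not of the endogenous level. For the time from transfection to RNA extraction the study states 2 different values. The labels do not say whether replicates were separate cultures, so the spread behind the p-values is that among these arrays and may be technical.

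CDK2, bound to cyclin E or cyclin A, drives entry into and passage through S phase. The CIP/KIP inhibitors CDKN1B (p27) and CDKN1C (p57) bind whole cyclin-CDK complexes, whereas the INK4 inhibitors CDKN2A (p16), CDKN2B (p15), CDKN2C (p18) and CDKN2D (p19) bind CDK4 and CDK6 and keep them from D cyclins. CDKN3 (also called KAP) is grouped with the inhibitors by its name but is a phosphatase, which removes the activating phosphate of CDK2. SKP2 is the F-box subunit of an SCF ubiquitin ligase that recognizes phosphorylated p27, and CKS1B is the small cofactor needed for that recognition. Several of these genes are themselves transcribed in a cell cycle-dependent way. In bulk RNA such as this, a smaller share of cells in a given phase and less RNA per cell cannot be told apart.

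The mature miRNA for which the mimic is named is shown with its seed, bases 2 to 8, in capitals, because base pairing of the seed is the main contact of a miRNA with its targets. Beside it stand miR-221-3p and miR-222-3p, which are known from other cells to repress CDKN1B. They share a seed with each other but not with miR-8073. The study states, however, that the other mature strand of miR-221 shares its seed with miR-8073. That strand is not shown and was not examined here. The sequences are from RefSeq, build GRCh38.p14, where miR-8073 lies at chr13:110340968-110340989 on the plus strand.
hsa-miR-8073: aCCUGGCAgcagggagcgucgu
hsa-miR-221-3p: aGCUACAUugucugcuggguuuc
hsa-miR-222-3p: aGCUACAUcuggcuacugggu
The 3′ ends of the member mRNAs were not searched for seed matches, so none of the values below is assigned to direct binding.

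Promoter windows, from 250 bases before to 50 after a start of the gene in RefSeq GRCh38.p14, were found for 8 of the 10 genes (11 windows in all, none for CDKN1C or CDK2). They were searched on both strands for 2 elements of cell cycle promoters that do not overlap each other in sequence, the core of the CHR element (TTTGAA) and an E2F site (GGCGGGAA). TTTGAA was in 15.2% of all 35116 promoter windows and GGCGGGAA in 3.16%. Among the members, TTTGAA was in the windows of CDKN3 and CKS1B, and GGCGGGAA in 1 of the 3 windows of CDKN2C. That window of CDKN2C belongs to a start inside the gene, whose first base is chr1:50960745. The 30 bases around each match are shown on the strand of the gene, with the match in capitals, because these were the 3 member genes with a match. The match of CDKN3 is on the opposite strand and so reads TTCAAA.
CDKN3, chr14:54396825-54396854, plus strand: tcccgcgcgtctTTCAAAggtcttctagga
CKS1B, chr1:154974639-154974668, plus strand: gcgggcggcgtgTTTGAAagcgaggccaaa
CDKN2C, chr1:50968563-50968592, plus strand: ggagagcgggaGGCGGGAAtgagggcgcgg
These matches describe the letters in the windows only and were not tested as binding sites.

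Blank spots averaged 59.8 to 64.4 scanner units on the 8 arrays, and 47.3% to 52.3% of probes lay above background, meaning above the 95th percentile of the blank spots. Log2 values of arrays of the same group correlated at 0.993 to 0.996 (7 pairs), and those of different groups at 0.983 to 0.993 (21 pairs). Of 8 colorectal epithelial markers on the array, EPCAM, KRT18, KRT19, CDH1 and VIL1 were above background on all 8 arrays. CDX2 was above background on some arrays, and CEACAM5 and LGALS4 on none. The summed signal of the 8 markers was 6821 to 8425 on negative control, 7716 to 9567 on mimic and 7987 to 8109 on mock arrays. Of 5 fibroblast markers, PDGFRB and DCN were above background on all 8 arrays and the collagens COL1A1, COL1A2 and COL3A1 on none, with a summed signal of 71.3 to 78.2 on negative control, 66.2 to 83.5 on mimic and 62.2 to 70.1 on mock arrays. The leukocyte markers PTPRC and CD3E and the endothelial markers VWF and CDH5 were above background on no array. The leukocyte marker CD14 was not absent throughout, but was above background on too few arrays to be tested.

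Of the 12 member probes, 11 were above background on all 8 arrays and were tested among 12904 probes, and they covered all 10 genes. The remaining probe, DHsGV10001857 for CDKN2C, was above background on no array (signals of 1.01 to 1.28) and is not considered further. Signals are normalized scanner units with the background removed. Log2 changes were taken after adding 50 to each signal, so the change of a dim probe comes out too small, and folds are ratios of mean signals. A probe was called when its p-value from limma, adjusted over all tested probes by the Benjamini-Hochberg method, was below 0.05. The number of arrays, 3 against 3 or 2, limits the precision of each value.

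CDKN3 and CDK2 were lower with the mimic than with the negative control, and so were CDKN2C and CDKN2B, whereas 1 of the 2 SKP2 probes was higher. Thus 4 member probes fell and 1 rose, 45.5% of the 11 tested, where 15.6% of all 12904 tested probes were called (7.81% lower and 7.82% higher). Lower calls were 50% of the calls over all probes, and 33.7% when arrays were centred on their medians instead. CDKN1B, CDKN1C, CDKN2A, CDKN2D, CKS1B and the other SKP2 probe were not called. The groups did not overlap for 4 member probes in the lower and 2 in the higher direction, against 18.2% and 19.6% of all tested probes (37.8% either way). The median log2 change of the members was -0.043, beside 0.0042 over all tested probes.

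**Figure D1:**
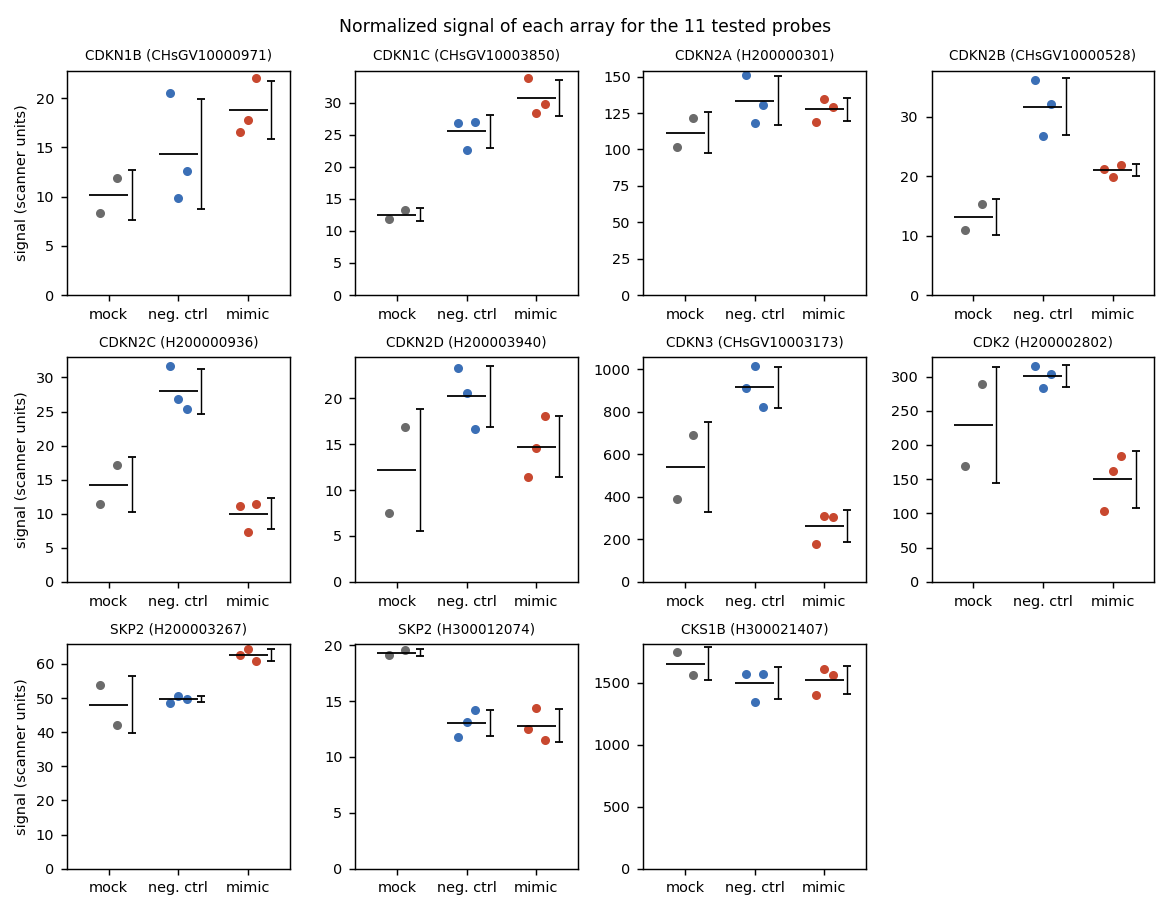
Normalized signal in scanner units of each array for the 11 tested member probes, in 1 panel a probe with its own axis from 0; points are arrays, horizontal lines are group means and error bars are the SD (3 negative control, 3 mimic and 2 mock arrays). For CDKN3 and CDKN2C every mimic array lies below all 5 control arrays, and for CDKN1C and the SKP2 probe H200003267 every mimic array lies above them.

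CDKN3, the phosphatase that acts on CDK2, had the largest change among the members. Its signals (probe CHsGV10003173) were 909.6, 1013 and 822 on the negative control arrays, 178, 310.3 and 304 on the mimic arrays, and 390.1 and 690.2 on the mock arrays. All mimic arrays were thus below all 5 control arrays, and the mock arrays lay between the other groups. The mean fell 3.46-fold with the mimic, to 264 ± 74.5 from 915 ± 95.8 in the negative control (SD, n = 3 each; log2 change -1.64 ± 0.24 SE, 95% interval -2.19 to -1.09, limma adjusted p = 0.00526). Ranked by log2 change, it was the 5th lowest of the 12904 tested probes. Against mock, whose mean was 540.2 ± 212 (n = 2), the signal was 2.04 times lower with the mimic, but this was not called (log2 change -0.89, 95% interval -1.51 to -0.276, limma adjusted p = 0.12). Negative control exceeded mock 1.69-fold, also without a call (log2 change 0.75, 95% interval 0.137 to 1.37, limma adjusted p = 0.163). In the order negative control, mock, mimic, neighbouring groups therefore did not differ past the threshold, and the outer groups did.

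CDK2, the kinase itself, followed the same order of groups with a smaller change. Its signals (probe H200002802) were 315, 283 and 304 on the negative control arrays, 103, 162 and 183 on the mimic arrays, and 169.7 and 289.7 on the mock arrays. Mimic and negative control arrays did not overlap, whereas the first mock array lay among the mimic arrays and the second among the negative control arrays. The mean fell 2.01-fold against the negative control, from 301 ± 16.4 to 149.6 ± 41.4 (SD, n = 3 each). The log2 change was -0.83 ± 0.19 SE (95% interval -1.29 to -0.379, limma adjusted p = 0.0289), the 69th lowest of the tested probes on log2(signal + 50). The mimic was not called against mock (230 ± 84.9, n = 2; log2 change -0.48, 95% interval -0.985 to 0.0341, limma adjusted p = 0.307), and neither was the negative control (log2 change 0.36, 95% interval -0.15 to 0.869, limma adjusted p = 0.399). The call against the negative control depended on single arrays. It was lost when any negative control array, or mimic array 1 or 2, was left out (limma adjusted p = 0.0581 to 0.0898).

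On log2(signal + 50), which compresses the spread of dim probes, these 2 probes were also the most variable of the members within groups. The residual SD of log2 values was 0.35 for CDKN3 and 0.29 for CDK2, larger than for 99.6% and 98.9% of tested probes, whose median was 0.074. In the log2 values the authors deposited the order was different, with 0.36 for the dim probe of CDKN1B, 0.34 for CDKN3, 0.33 for SKP2 H300012074 and 0.31 for CDK2. The order of arrays within groups was alike in part. Mimic array 1 was the lowest of all 8 arrays for both probes, and mock array 1 was below mock array 2 for both. Negative control array 2, however, was the highest of its group for CDKN3 and the lowest for CDK2, and mimic array 2 was above mimic array 3 for CDKN3 and below it for CDK2. The ring of pixels around these spots was nearly as bright as the spot. Rings followed spots across the whole array, with correlations of log2 intensity over all spots of 0.924 to 0.987 on the 8 arrays. For CDKN3, unnormalized spot intensities on the negative control arrays were 827, 1021 and 939 with rings of 711, 1110 and 927, and on the mimic arrays 222, 407.5 and 400.4 with rings of 221, 368 and 374. Rings at blank spots averaged only 51.3 to 58.4. When the ring was taken as background, 0 of all tested probes were called against the negative control, and so neither of these changes. The change of CDK2 turned to 0.16 (limma adjusted p = 1 for both). Rings were also near the spot for the dim probe of CDKN2C, with spots of 86.2, 84.3 and 88.55 and rings of 83.3, 85.15 and 79.0 on the negative control arrays. On the mimic arrays its spots were 71.8, 69.4 and 75.9 and its rings 74.1, 68.8 and 70.2. For CKS1B the rings on the negative control arrays were lower, at 716.5, 955.7 and 1258 beside spots of 1367, 1350 and 1752. Whether the ring held signal from the spot or a local background was not tested.

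**Figure D2:**
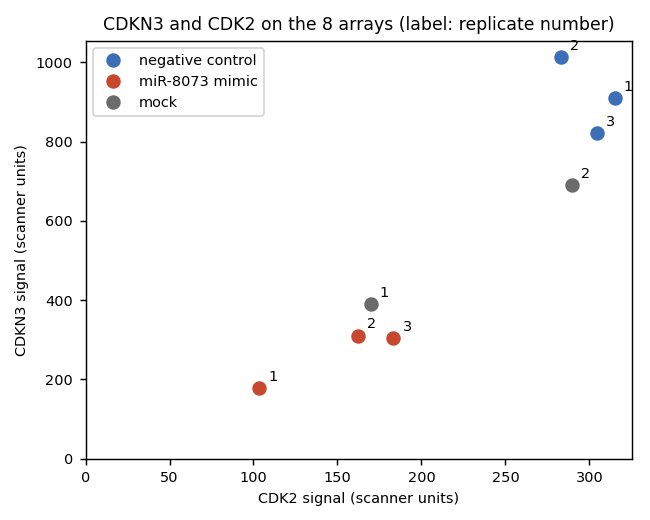
Signal of CDKN3 (vertical axis) against CDK2 (horizontal axis) in scanner units on the 8 arrays, coloured by group and labelled with the replicate number. Negative control arrays lie at the upper right, mimic arrays at the lower left, with mimic array 1 lowest on both axes; mock array 1 (CDKN3 390.1, CDK2 169.7) lies beside the mimic arrays and mock array 2 (690.2 and 289.7) nearer the negative control.

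Of the INK4 inhibitors, CDKN2C and CDKN2B fell with the mimic relative to the negative control, and CDKN2A and CDKN2D were not called. CDKN2C, p18, had signals (probe H200000936) of 31.7, 26.9 and 25.3 on the negative control arrays, 11.2, 7.37 and 11.4 on the mimic arrays, and 11.4 and 17.1 on the mock arrays. Every mimic array was below every control array, though mock array 1 exceeded the highest mimic array only slightly. The mean fell 2.8-fold, from 27.97 ± 3.33 to 9.99 ± 2.27 (SD, n = 3 each; log2 change -0.38 ± 0.053 SE, 95% interval -0.502 to -0.254, limma adjusted p = 0.00484). Since the probe was dim, the size of its log2 change depended on the offset. It was -0.76 with an offset of 16 and -1.41 in the log2 values the authors deposited. In those values the 3 negative control arrays stood at 4.84, 4.61 and 4.78, and the mimic arrays at 3.74, 3.05 and 3.22. Mock (14.3 ± 4.06, n = 2) was not called apart from the mimic (log2 change -0.10, 95% interval -0.238 to 0.04, limma adjusted p = 0.444). The negative control was 1.96 times higher than mock, just short of the threshold (log2 change 0.28, 95% interval 0.141 to 0.418, limma adjusted p = 0.0515).

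CDKN2B, p15, an inhibitor known to be induced by TGF-beta, had signals (probe CHsGV10000528) of 36.2, 26.7 and 32.1 with the negative control, 21.3, 19.9 and 21.9 with the mimic, and 10.97 and 15.3 in mock. The 3 groups did not overlap, and the mimic lay between the controls. In the log2 values the authors deposited, however, mimic array 1 (4.62) was slightly above negative control array 2 (4.60). The mean fell 1.51-fold against the negative control, from 31.7 ± 4.78 to 21.0 ± 1.03 (SD, n = 3 each; log2 change -0.20 ± 0.052 SE, limma adjusted p = 0.0401). It was 1.6 times the mock mean of 13.2 ± 3.09 (n = 2), without a call (log2 change 0.17, 95% interval 0.0347 to 0.305, limma adjusted p = 0.166). The negative control itself rose 2.41-fold over mock (log2 change 0.37 ± 0.058 SE, limma adjusted p = 0.0222). The direction of the mimic's difference for CDKN2B was therefore opposite against the 2 controls. The call against the negative control was lost without negative control array 1 or 3 or any mimic array (limma adjusted p = 0.083 to 0.111), and that of the negative control over mock without negative control array 1 or 3 or mock array 1 (limma adjusted p = 0.0603 to 0.129).

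CDKN2A encodes p16 and, from another reading frame, ARF, an inhibitor of MDM2; the files do not say which transcripts its probe H200000301 detects. Signals were 151, 118 and 131 with the negative control, 119, 134.5 and 129.5 with the mimic, and 102 and 122 in mock. The groups overlapped in all 3 comparisons, and none was called. For mimic against negative control the log2 change was -0.04 with a 95% interval of -0.227 to 0.141 (limma adjusted p = 0.757). CDKN2D, p19 of the INK4 family, had signals (probe H200003940) of 23.3, 20.6 and 16.7 with the negative control, 11.4, 14.6 and 18.1 with the mimic, and 7.48 and 16.9 in mock. The groups overlapped, and the log2 change against the negative control was -0.12 (95% interval -0.28 to 0.0455, limma adjusted p = 0.299).

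Neither CIP/KIP inhibitor was called between mimic and negative control, but CDKN1C was higher in both groups given a sequence than in mock. CDKN1C, p57, is an imprinted gene. Its signals (probe CHsGV10003850) were 26.9, 22.6 and 27.1 with the negative control, 33.9, 28.4 and 29.8 with the mimic, and 11.8 and 13.2 in mock. Every mimic array was above every control array, and both mock arrays were far below the rest. In the log2 values the authors deposited, however, mimic array 3 (4.70) was below negative control array 3 (4.87). The mimic rose 2.45-fold over mock, from 12.5 ± 0.991 (n = 2) to 30.7 ± 2.84 (SD, n = 3; log2 change 0.37 ± 0.047 SE, limma adjusted p = 0.00926), and the negative control, at 25.5 ± 2.53 (SD, n = 3), rose 2.03-fold over mock (log2 change 0.27 ± 0.047 SE, limma adjusted p = 0.029). Between mimic and negative control the log2 change was 0.10, with a 95% interval of -0.00265 to 0.194 (limma adjusted p = 0.169). Without mock array 2 the mimic was no longer called against mock (limma adjusted p = 0.056). The call of the negative control over mock was lost without negative control array 1 or 3 or either mock array (limma adjusted p = 0.0668 to 0.157).

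CDKN1B encodes p27, the inhibitor that SKP2 and CKS1B send for degradation and whose amount is known to be set largely after transcription. Its signals (probe CHsGV10000971) were 20.6, 9.86 and 12.6 with the negative control, 16.5, 17.8 and 22.1 with the mimic, and 8.37 and 11.9 in mock. The first negative control array lay among the mimic arrays, so these groups overlapped, whereas all mimic arrays were above both mock arrays. Mimic and negative control means were 18.8 ± 2.91 and 14.3 ± 5.56 (SD, n = 3 each), a log2 change of 0.10 (95% interval -0.0586 to 0.257, limma adjusted p = 0.367). Against the mock mean of 10.1 ± 2.51 (n = 2) the mimic was 1.85 times higher, without a call (log2 change 0.19, 95% interval 0.0171 to 0.37, limma adjusted p = 0.226). No alternative setting or omitted array brought CDKN1B past the threshold in either comparison with the mimic.

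The 2 probes for SKP2 disagreed. On the brighter, H200003267, signals were 48.7, 50.5 and 49.7 with the negative control, 62.7, 64.5 and 60.9 with the mimic, and 53.9 and 42.2 in mock. All mimic arrays were above all 5 control arrays. In the log2 values the authors deposited, however, mimic array 3 (5.76) was below mock array 1 (5.91). The mean rose 1.26-fold against the negative control, from 49.6 ± 0.944 to 62.7 ± 1.8 (SD, n = 3 each; log2 change 0.18 ± 0.048 SE, limma adjusted p = 0.0468). Against mock (48.0 ± 8.27, n = 2) the log2 change was 0.20 without a call (95% interval 0.0775 to 0.329, limma adjusted p = 0.0901). The call against the negative control was lost when any of the 6 arrays compared was left out (limma adjusted p = 0.0865 to 0.13). On H300012074, signals were 11.8, 13.1 and 14.2 with the negative control, 12.5, 14.4 and 11.5 with the mimic, and 19.1 and 19.6 in mock. Mimic and negative control overlapped there (log2 change -0.01, 95% interval -0.0857 to 0.0751, limma adjusted p = 0.939), and both were below mock without a call (log2 change -0.14 for each, limma adjusted p = 0.0947 and 0.0986). With an intensity trend in the variance both passed the threshold against mock (limma adjusted p = 0.043 and 0.0483). Which SKP2 transcripts either probe detects is not stated in the files.

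CKS1B, the cofactor of SKP2, did not differ past the threshold in any comparison. Its signals (probe H300021407) were 1573, 1347 and 1573 with the negative control, 1399, 1608 and 1560.2 with the mimic, and 1748 and 1558 in mock, so all 3 groups overlapped. Means were 1498 ± 130 and 1522 ± 110 (SD, n = 3 each) for negative control and mimic, with a log2 change of 0.02. Its 95% interval of -0.168 to 0.216 holds neither the fall of CDKN3 nor that of CDK2 (limma adjusted p = 0.883).

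Against mock, limma called 1 member probe with the mimic, CDKN1C, which rose (9.09% of 11, beside 3.77% of all tested probes, or 1.22% in the higher direction). It called 0 lower, where 2.56% of all tested probes were lower. At an unadjusted p below 0.05 limma gave 6 member probes, 2 lower and 4 higher, beside 1249 lower and 1139 higher among all 12904 tested probes. The methods' t-test gave 0 member probes after adjustment and 4 before it, beside 2 and 1725 of all tested probes. The mimic did not overlap mock for 3 member probes in the lower and 4 in the higher direction, against 16.9% of all tested probes each way (33.8% together). For negative control against mock, 2 member probes rose, CDKN1C and CDKN2B, and 0 fell (18.2% of 11, beside 3.6% of all, 1.37% higher and 2.23% lower). In this comparison 1 was lower and 4 higher at an unadjusted p below 0.05 in limma, beside 1427 and 1317 of all tested probes. Here 1 member probe in the lower and 4 in the higher direction did not overlap, against 19.9% and 19.4% of all (39.3% together). Over all probes, lower calls were 67.8% of those of the mimic and 61.9% of those of the negative control against mock, and 77.5% and 90.7% with median centring (86% and 88.8% in the log2 values of the authors' table). Median log2 changes of the members were 0.061 for mimic and 0.18 for negative control against mock, beside 0.0063 and 0.00088 over all tested probes.

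The 3 comparisons share arrays, so their values are not independent. No member probe (0 of 11) passed limma's test the same way against each control, where 2.01% of all tested probes were lower and 0.775% higher against both. The 3 mimic arrays were lower than each of the 5 control arrays for CDKN2C and CDKN3, and higher for CDKN1C and SKP2 H200003267, beside 8.48% and 7.82% of all tested probes. The separations of CDKN1C and SKP2 H200003267 did not hold in the log2 values the authors deposited. For CDKN3, CDK2 and CDKN2C the mimic was lower than both controls in mean, but none of them was called against mock in the fit reported. CDKN3 was called there with an offset of 16 (log2 change -0.97, limma adjusted p = 0.0432) and with an intensity trend in the variance (-0.89, limma adjusted p = 0.0155).

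**Figure D3:**
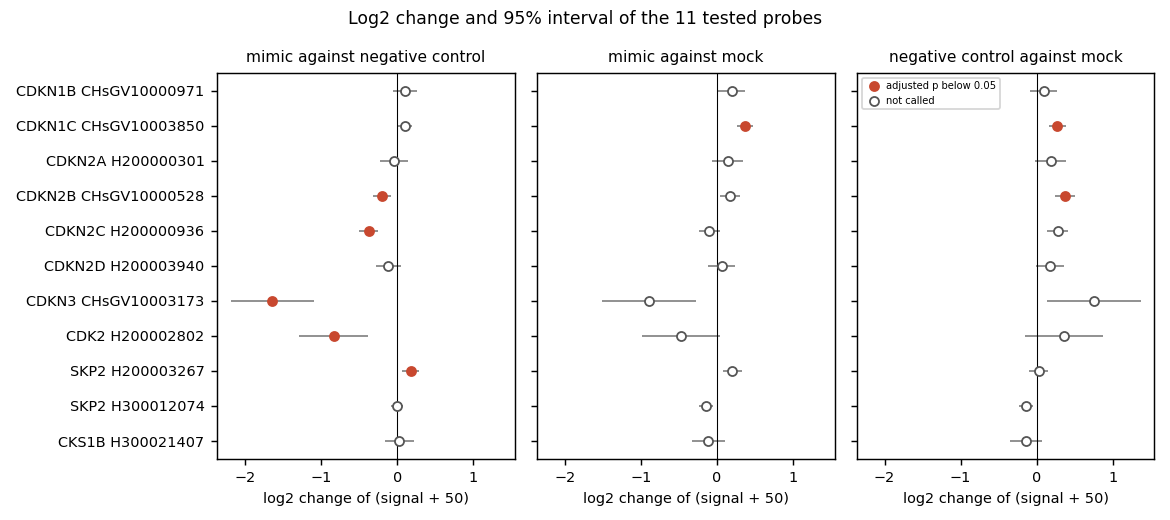
Log2 change of (signal + 50) with its 95% interval for the 11 tested member probes in the 3 comparisons; filled points passed an adjusted p of 0.05 in limma. Against the negative control CDKN3, CDK2, CDKN2C and CDKN2B are filled to the left and SKP2 H200003267 to the right; against mock only CDKN1C is filled for the mimic, and CDKN1C and CDKN2B for the negative control.

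CDKN3 and CDKN2C kept their calls against the negative control under more settings than the other called members. Both stayed past the threshold whichever array was left out, with limma adjusted p of 0.00312 to 0.0219 for CDKN3 and 0.00519 to 0.0189 for CDKN2C, and under each other setting except the ring as background. The log2 change without 1 array ranged from -1.75 to -1.43 for CDKN3 and from -0.40 to -0.34 for CDKN2C. The calls of CDK2, CDKN2B and SKP2 H200003267 were close to the threshold and were each lost under several settings.

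**Figure D4:**
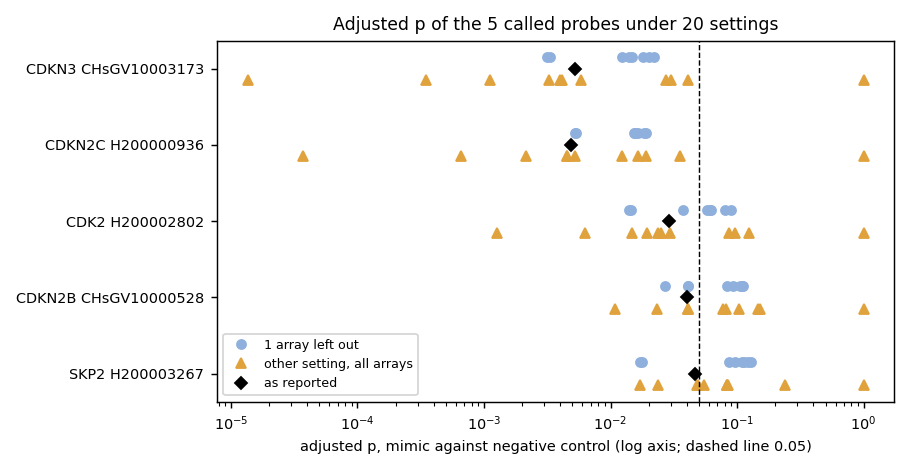
Adjusted p (log axis) for mimic against negative control of the 5 called member probes, as reported, with 1 array left out, and under other settings; the dashed line is 0.05. Points for CDKN3 and CDKN2C lie left of the line but for the ring background at 1, while those of CDK2, CDKN2B and SKP2 lie on both sides.

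Probes of other genes with the most similar pattern were ranked by Pearson correlation of log2 values over the 8 arrays, as a description without a test. The arrays fall into groups, so any gene with the same order of groups scores high. For CDK2 the named genes were DCP1A (r = 0.99), EIF4A1 (0.99), MRPL17 (0.985) and NIPA2 (0.984). The nearest to SKP2 H200003267 were AP1G1 (0.982), TRAFD1 (0.968), RNASE8 (0.963), NME7 (0.962) and PGM1 (0.961). For CDKN1B they were TNFRSF10B (0.958), ERO1B (0.952), WFIKKN1 (0.931) and PRCP (0.93), and for CKS1B CYP2U1 (0.96), SMU1 (0.925), RCC2 (0.923) and SLC61A1 (0.918). CDK2, CDKN1B and CKS1B each had 1 probe without a gene symbol among their nearest 5.

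Among the partners and switches of CDK2, 2 of 13 tested genes fell against the negative control and 1 rose, where 7.81% of all tested probes were lower and 7.82% higher (median log2 change -0.031, beside 0.0042 over all tested probes). CCNA2, the cyclin A2 that binds CDK2 in S phase, had signals of 632, 571 and 522 with the negative control, 302, 317 and 311 with the mimic, and 538 and 741 in mock. It fell against the negative control (log2 change -0.79, limma adjusted p = 0.00472) and against mock (-0.92, limma adjusted p = 0.0111), and the mimic arrays were below all controls. PKMYT1, a kinase that places inhibitory phosphate on CDK1, fell from 345.2 ± 34.4 to 149.9 ± 19.6 (SD, n = 3 each; log2 change -0.98, limma adjusted p = 0.00206), with mock between at 233 ± 45.5 (n = 2; mimic against mock -0.50, limma adjusted p = 0.0723). CDKN1A, p21, the CIP/KIP member outside the set, rose from 391.6 ± 51.2 to 537 ± 78.2 (SD, n = 3 each; log2 change 0.41, limma adjusted p = 0.049), a call lost without any negative control or mock array or mimic array 2 or 3 (limma adjusted p = 0.0618 to 0.11). CCNE2, the cyclin E2 that binds CDK2 at the entry to S phase, fell against mock alone (log2 change -0.53, limma adjusted p = 0.0193), with -0.23 against the negative control (limma adjusted p = 0.0852), and the call was lost without mimic array 1 or either mock array (limma adjusted p = 0.0568 to 0.0822). Whether these differences differed from each other was not tested.

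Of the D cyclins, their kinases CDK4 and CDK6 and the pocket proteins those kinases phosphorylate, 1 of 6 tested genes fell and 1 rose against the negative control, beside 7.81% and 7.82% of all tested probes (median -0.073, beside 0.0042). CCND1, cyclin D1, which the study names as a target of miR-8073, had signals of 1961, 2309 and 2169 with the negative control, 655, 481 and 631 with the mimic, and 1890 and 1725 in mock. It fell against both (log2 change -1.79 and -1.55, limma adjusted p = 0.000344 and 0.00185). CCND3, cyclin D3, was 43.2, 41.0 and 48.5 with the negative control, 133, 112.1 and 129.5 with the mimic, and 145 and 131 in mock, so that the negative control arrays stood below both other groups. It rose with the mimic against the negative control (log2 change 0.89, limma adjusted p = 0.000344) and fell with the negative control against mock (-0.995, limma adjusted p = 0.00229), while mimic and mock were not called apart (-0.11, limma adjusted p = 0.472).

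Of the genes of the SCF ligase and p27 turnover, 1 of 18 fell and 3 rose against the negative control, beside 7.81% and 7.82% of all tested probes (median 0.13, beside 0.0042). COPS5, the catalytic subunit of the signalosome that removes NEDD8 from cullins, rose from 905 ± 123 to 1399 ± 151 (SD, n = 3 each; log2 change 0.60, limma adjusted p = 0.013). Its negative control arrays (1032, 897 and 785.5) were also below both mock arrays (1193 and 1361), without a call (log2 change -0.48, limma adjusted p = 0.0872). The call of COPS5 against the negative control was lost with the ring as background, without a filter and with the methods' t-test. RBX1, the RING subunit, rose from 1205 ± 125 to 1634 ± 123 (0.43, limma adjusted p = 0.0237), and CUL1, the scaffold of the SCF ligase, from 91.2 ± 12.4 to 131 ± 17.0 (0.36, limma adjusted p = 0.0354). DDB1, the adaptor of CUL4 ligases, fell from 1035 ± 43.4 to 862 ± 63.2 (-0.25, limma adjusted p = 0.0448). None of these 4 genes was called against mock, where the log2 changes were 0.12, 0.23, 0.26 and -0.02. The CUL4 receptor DTL was the 1 gene of this list called there, at 22.3 and 27.1 in mock against 12.7, 9.44 and 10.2 with the mimic (log2 change -0.30, limma adjusted p = 0.0213). Without 1 array these calls were often lost, DDB1 without any negative control or mimic array (limma adjusted p = 0.0512 to 0.123), CUL1 without any negative control array or mimic array 1 or 2 (0.0604 to 0.0952) and RBX1 without mimic array 2 or 3, or array 1 or 3 of the negative control (0.0672 to 0.0827). DTL was lost without mimic array 2 or 3 or mock array 2 (limma adjusted p = 0.0605 to 0.121), while COPS5 was called whichever array was left out.

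Among 15 tested transcription factors and chromatin regulators that act on the members, 2 fell and 1 rose against the negative control, beside 7.81% and 7.82% of all tested probes (median 0.058, beside 0.0042). FOXM1, a factor known to activate SKP2 and CKS1B in other cells and named by the study as a target of miR-8073, had signals of 66.9, 72.7 and 74.9 with the negative control, 8.71, 6.38 and 6.84 with the mimic, and 75.4 and 62.0 in mock. It fell against both (log2 change -1.08 and -1.05, limma adjusted p = 0.000198 and 0.000404). Neither SKP2 probe nor CKS1B was called lower against either control in the fit reported. SKP2 H300012074 was called lower with the mimic than in mock with an intensity trend in the variance (limma adjusted p = 0.043). Whether FOXM1 acted on SKP2 or CKS1B in these cells was not tested. Since the FOXM1 probe was dim on the mimic arrays, the size of its fall against the negative control depended on the scale. It was -1.91 with an offset of 16 and -3.23 in the authors' log2 values, where that of CCND1 was -1.85 and -1.84. E2F1 fell from 26.9 ± 2.57 to 17.5 ± 3.91 (SD, n = 3 each; log2 change -0.19, limma adjusted p = 0.0446) and lay at 21.7 ± 0.766 in mock (n = 2). SMAD4, which carries the TGF-beta signal to CDKN2B, rose from 24.3 ± 1.92 to 38.6 ± 1.63 (SD, n = 3 each; log2 change 0.26, limma adjusted p = 0.00708). As with CCND3, all negative control arrays were below both other groups for SMAD4, at 24.1, 22.4 and 26.2 beside 44.3 and 38.5 in mock, and it fell there (log2 change -0.30, limma adjusted p = 0.0196). The call of E2F1 was lost without any negative control or mock array or mimic array 2 or 3 (limma adjusted p = 0.0578 to 0.134), and that of SMAD4 against mock without any negative control array or mock array 1 (limma adjusted p = 0.0533 to 0.116).

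**Figure D5:**
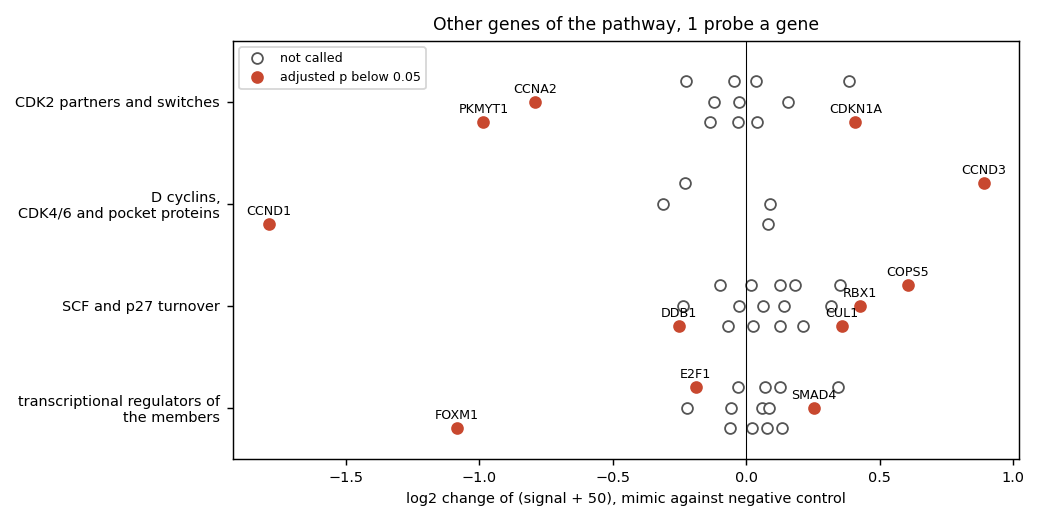
Log2 change of (signal + 50) for mimic against negative control of the other genes of the pathway, 1 point a gene, in the 4 lists described; filled and named points passed an adjusted p of 0.05 in limma. On this scale CCND1 (-1.79), FOXM1 (-1.08), PKMYT1 (-0.98) and CCNA2 (-0.79) lie farthest to the left and CCND3 (0.89) and COPS5 (0.60) farthest to the right, while most genes lie near 0; with an offset of 16, FOXM1 (-1.91) lies left of CCND1 (-1.85).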

How the data were processed

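Expression was measured in 3 mimic, 3 negative control and 2 mock samples. The deposited spot intensity was the median of the pixels at 635 nm, neither background-corrected nor normalized by the authors. A second deposited table held log2 values that the authors had normalized by quantiles, from a floor of 2.07 to 14.95, with a background correction that none of the sources used here describes. From the intensities, background was estimated with normexp on the 2680 blank spots (offset 50), and arrays were quantile normalized in limma 3.58.1 (R 4.3.3, with jsonlite 2.0.0). Control spots and 13 faulty probe spots were left out. The 12904 probes above the 95th percentile of blanks on at least 2 arrays were tested with lmFit and eBayes on 3 group means (5 residual and 2.36 prior degrees of freedom), 2-sided, with Benjamini-Hochberg adjustment. Gene symbols came from the platform table and were updated for 2899 probes; every probe of the members was reported. In the other lists a gene was its brightest tested probe by mean, and up to 4 called genes in each direction were named; genes called only against mock were named after their values were seen. The members and lists were chosen with earlier results of these data known. Alternatives covered background, offset, normalization, filter, variance trend, samples in the fit, replicate block, test and omission of each array. Figures were drawn with matplotlib 3.10.9.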

Additional observations from a re-analysis of the deposited data

How the results depend on the processing

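Counts of called member probes are given for mimic against negative control, mimic against mock and negative control against mock, in that order, and were 5, 1 and 2 as reported. With the ring of pixels as background they were 0, 0 and 0 (0 member probes at an unadjusted p below 0.05 in limma in each). For mimic against negative control it was 2 with median centring, 3 with the authors' log2 values, 2 without a filter and 3 with the methods' t-test after Benjamini-Hochberg adjustment. At the methods' own thresholds (t-test p below 0.001 with limits on fold and signal) 71, 11 and 6 probes passed, 0 of them members. For mimic against mock it was 2 with an offset of 16, 3 with an intensity trend and 0 with the t-test. For negative control against mock it was 0 with median centring, 1 with the authors' values, 0 without a filter, 5 with the trend, 0 with only the 2 groups fitted and 0 with the t-test. Leaving out 1 array gave 2 to 5, 0 to 2 and 0 to 2. Replicate numbers were not taken as pairs. Same-numbered deviations correlated at 0.1, 0.025 and 0.0275 between negative control and mimic, -0.106 and -0.00371 between negative control and mock, and 0.345 and 0.268 between mimic and mock. Different-numbered deviations correlated at -0.0594 to 0.037, -0.124 to 0.124 and -0.345 to 0.127 in the same order. The 2 mock arrays deviate from their mean by opposite amounts, so correlations with mock come in pairs of opposite sign. With the replicate block the counts were 3, 1 and 0, and over all probes 1849, 223 and 141.

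Over all tested probes the counts were 2017, 487 and 465. They were 0, 0 and 0 with the ring background (364, 266 and 422 at an unadjusted p below 0.05), 947, 102 and 97 with median centring, 930, 150 and 89 with the authors' values, 1252, 268 and 181 without a filter, and 822, 2 and 6 with the t-test. The offset of 16 gave 743 for negative control against mock; against mock the trend gave 755 (mimic) and 855 (negative control), and only the 2 groups 185 and 181. Leaving out 1 array gave 1081 to 2233, 126 to 375 and 68 to 416. The share of lower calls, 50%, 67.8% and 61.9%, became 33.7%, 77.5% and 90.7% with median centring and 46.5%, 86% and 88.8% with the authors' values, which moved the median of all probes to -0.11 for negative control against mock. Under the ring background the log2 change against the negative control turned to 0.16 for CDK2, -0.16 for SKP2 H200003267, 0.31 for PKMYT1, 0.024 for CCNA2, -0.29 for CDKN1A and 0.33 for DDB1, all with a limma adjusted p of 1. The cause of these changes was not tested. The alternatives for genes outside the set were chosen after seeing the data.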
